A study of Mus musculus with 12 samples.

Results

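Rreb1, the gene for the RAS-responsive element binding protein 1, was the nearest gene of 49 of the 52530 accessible regions (peaks) that the authors merged from ATAC-seq of mouse hepatocyte nuclei. All 49 were taken, selected on the gene name in the deposited table, and no other of the 15001 genes with a peak had as many (the next had 38, and the median gene had 2). That a peak was called at all is itself a readout of these libraries, and the locus was singled out with results of these data known, so the values that chose it, its number of called peaks and the fasting differences, are described and support no claim: no p is given for them, and counts of members past the threshold are set beside the share of all peaks. Differences between frozen and fresh tissue, and between the fasting differences of both preparations, were not counted among those values and were tested. The reason for the choice is not stated, so a part of freezing in it is not excluded.

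Female HEP-INTACT mice, a line from which tagged hepatocyte nuclei can be pulled down with beads, were fasted for 16 h from the start of their active phase, ZT12, or fed ad libitum and killed at the same time. The labels number 6 mice, and each gave 1 library from frozen liver and 1 from fresh liver. The groups were therefore fasted frozen, fasted fresh, fed frozen and fed fresh, with 3 libraries each and 12 in all. The columns carry letters A to C instead of mouse numbers, and the frozen and fresh library of a letter and feeding state were taken as 1 mouse because they deviated together. All groups share the sex and the nuclear tag; the sources used here do not give the alleles behind the tag. If the smallest step between the values of a library is taken as 1 read, the libraries held 3692152 to 14506057 reads in peaks. The median Rreb1 peak then held 66 to 256 reads per library, which puts its counting error at 6.25% to 12.3%. Peaks lay at all 8 genes listed as hepatocyte markers (96 peaks). The other lists had 16 peaks at 5 of 6 endothelial genes, 4 at 3 of 5 bile duct genes, 3 at 3 of 6 macrophage genes, 3 at 1 of 5 stellate genes and none at 5 lymphocyte genes.

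RREB1 is a zinc finger transcription factor that acts downstream of RAS and the MAPK cascade, and that works with SMAD proteins on genes that respond to TGF-beta. It can recruit corepressors such as CtBP and so lower the activity of its targets. Human variants near RREB1 are associated with fasting glucose and with diabetes. ATAC-seq marks DNA that a transposase can reach, so a peak near the gene is an open element, which need not act on Rreb1.

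The 49 peaks reached over 343.4 kb of chromosome 13, from 228.3 kb upstream to 114.9 kb downstream of the first annotated start of Rreb1 at position 37826038 (mm10, plus strand). Distances below are from the peak centre to that start. Peaks were windows of about 200 bp, 11 overlapped another member, and merging left 42 separate regions. The file places 5 within 1 kb of an annotated start, 20 in introns (11 of them in intron 1) and 24 outside genes. RefSeq gives Rreb1 a longer span, from 37778382 to 37952005 (173.6 kb), which holds 27 members, among them 2 that the file places outside genes. Of all members, 11 overlap 6 RefSeq long noncoding RNA genes that the file does not use. Gm40915, at 37616601 to 37627571, holds 3 peaks, among them those 206.1 and 205.7 kb upstream, AI463229, at 37657013 to 37667735, those 168.5, 159.3 and 158.4 kb upstream, and Gm31600, at 37761563 to 37767935, those 64.3 and 64.2 kb upstream. Their nearest coding gene is what the file records, and no value here ties them to it.

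Rreb1 has 4 promoter windows in the RefSeq table (GRCm38.p6, plus strand), each of 250 bases before and 50 after a start. Only the windows of the starts at 37826038 and 37826912 overlap members, and their 250 bases before the start are shown because the peaks over them had unequal fasting differences. Capitals mark the GC box, the cAMP response core TGACG and the E-box CACGTG. The first, chr13:37825788-37826037, carries all of these, with the E-box at position -9 from the start, and the second, chr13:37826662-37826911, carries a GC box on the minus strand at position -58.
Start at 37826038: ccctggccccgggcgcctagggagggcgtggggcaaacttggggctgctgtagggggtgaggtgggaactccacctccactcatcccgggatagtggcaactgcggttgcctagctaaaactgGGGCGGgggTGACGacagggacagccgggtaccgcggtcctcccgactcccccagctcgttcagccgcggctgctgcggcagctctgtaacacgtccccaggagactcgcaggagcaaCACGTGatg
Start at 37826912: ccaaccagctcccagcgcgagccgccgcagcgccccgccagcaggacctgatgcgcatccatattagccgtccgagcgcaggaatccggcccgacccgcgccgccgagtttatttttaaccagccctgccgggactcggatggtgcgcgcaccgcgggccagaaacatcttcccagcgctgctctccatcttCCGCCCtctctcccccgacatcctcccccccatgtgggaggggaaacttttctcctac
The GC content of the full windows was 66.0% and 64.7%, against a median of 52.7% over all 32851 windows. The windows of the starts at 37888434 and 37888871 overlap no member and had 46.7% and 46.3% GC.

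Each motif was searched on both strands of all windows. The E-box was in 1 of the 4 Rreb1 windows and in 7.15% of all windows. TGACG was in 2 Rreb1 windows, in the second of them 38 bases after the start, and in 20.8% of all. The GC box GGGCGG was in 2 Rreb1 windows and in 35.7% of all. No Rreb1 window held the full cAMP response element TGACGTCA, which contains TGACG (1.79% of all windows), the forkhead motif GTAAACA (3.65%), the palindromic glucocorticoid response element (0.475%), the direct repeat of the PPAR response element (0.0396%), the AP-1 motif TGANTCA (7.81%), the STAT motif TTCNNNGAA (8.3%) or CCCCACC, the core that RREB1 binds (15.7%).

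Accessibility is given as the authors' normalized reads per peak, on windows of equal length. The mean over the 12 libraries had a median of 127 over the Rreb1 peaks (45.0 to 431), beside 114 over all peaks. As a class the start peaks had the lowest levels, at 62.4 to 109 with a median of 83.9, which is the 19.5th percentile of all peaks within 1 kb of a start (median 167). Intron members had a median of 129 and those outside genes one of 141. The highest level of the locus was 205.7 kb upstream, inside Gm40915, at the 97.6th percentile of all peaks. That peak (37620251 to 37620451) had 445, 491 and 519 normalized reads in fasted frozen and 356, 347 and 382 in fasted fresh libraries, against 509, 486 and 457 in fed frozen and 375, 436 and 370 in fed fresh libraries. Fasted and fed libraries overlapped, and frozen libraries stood above fresh ones. A CpG island 31.7 kb downstream in intron 1 came next with a mean of 419 and does not differ from it beyond their spread. Of the 9 members with a mean over 240 normalized reads, each had a log2 difference between fasted and fed mice of -0.15 to 0.11. The range depends on where the line is drawn. The 13 members over 200 had -0.15 to 0.35, and the 32 over 100 had -0.42 to 1.03.

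**Figure D1:**
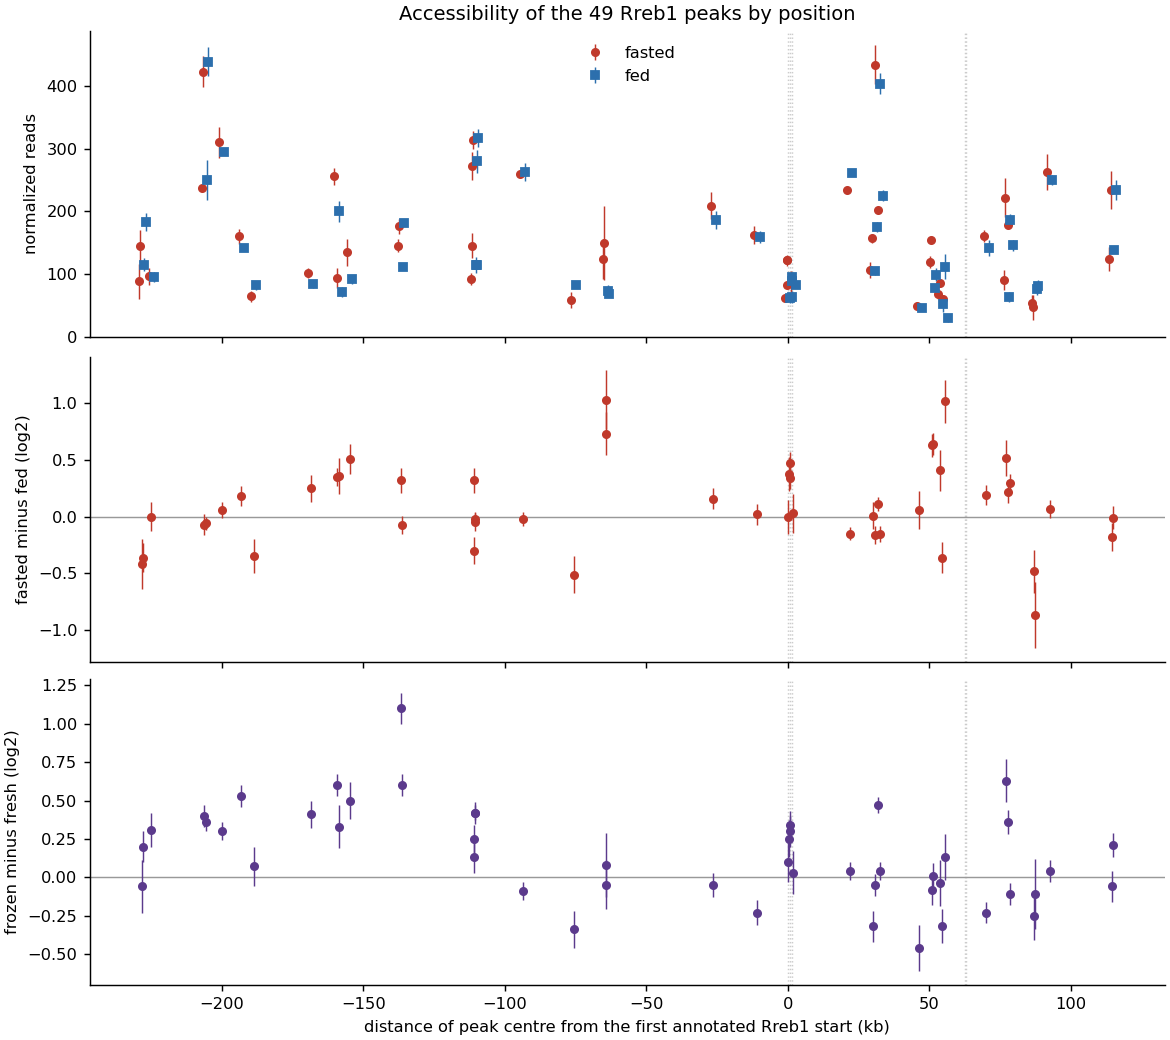
The 49 Rreb1 peaks by distance of the peak centre from the first annotated start in kb, with dotted lines at the 5 starts. Top, mean ± SD normalized reads of fasted (circles) and fed (squares, both n = 3); middle, fasted minus fed; bottom, frozen minus fresh (log2 ± SE). The 9 peaks over 240 reads lie at -0.15 to 0.11 in the middle panel, and the 13 over 200 reads at -0.15 to 0.35. In the bottom panel, 14 of the 18 peaks over 100 kb upstream were called higher in frozen tissue, beside 28.7% of all peaks. The line at 100 kb was drawn after the values were seen.

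The first question is what fasting did at the locus. Fasted and fed Rreb1 peaks differed in both directions, by -0.87 to 1.03 on the log2 scale, and the 2 largest differences upward were at 64.2 kb upstream and at 55.6 kb downstream in intron 1. On the average of both preparations, 13 members were higher and 2 lower in fasted mice (15 of 49, 30.6%), beside 34.6% of all peaks (16.5% higher, 18.1% lower), by limma with an adjusted p under 0.05 over all peaks. The median member differed by 0.06, the median of all peaks by 0.05, and 25 members stayed within 0.25 of 0. Within frozen tissue 9 members were higher and 1 lower (all peaks 27.8%), and within fresh tissue 9 were higher and 3 lower (all peaks 27.6%). The 15 members became 10 without the fed letter A, 6 without the fasted letter A, 7 without the fed letter B and 9 without the fed letter C, with none lower in these 4. Of all peaks, 23.5%, 23.6%, 21.9% and 28.0% were called in these 4. Scaling the libraries to peaks near gene starts moved the median of all peaks to -0.08. It moved the split to 8 higher and 10 lower Rreb1 peaks, with a median of -0.07. Of all peaks, 4065 were then higher and 12845 lower (32.2%). Quantile normalization gave 14 higher and 6 lower, beside 36.4% of all peaks (9692 higher, 9416 lower). In bulk nuclei, fewer open cells and less open DNA per cell cannot be told apart.

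In the authors' deposited table, 9 Rreb1 peaks were higher and 1 lower in frozen tissue (20.4%, beside 29.5% of all peaks). There, 7 were higher and 2 lower in fresh tissue (18.4%, beside 23.1%). Of the 49 members, 37 had the same sign in both preparations and 12 the opposite one (r = 0.88 over the 49 peaks of the same mice, a description). All 6 fasted libraries lay above all 6 fed ones at 5 members (5.16% of all peaks) and below them at 1 (7.79%). The 5 lay 64.2 kb upstream and at 51.0, 51.4, 55.6 and 78.6 kb, and the 1 at 87.3 kb downstream of the first start.

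**Figure D2:**
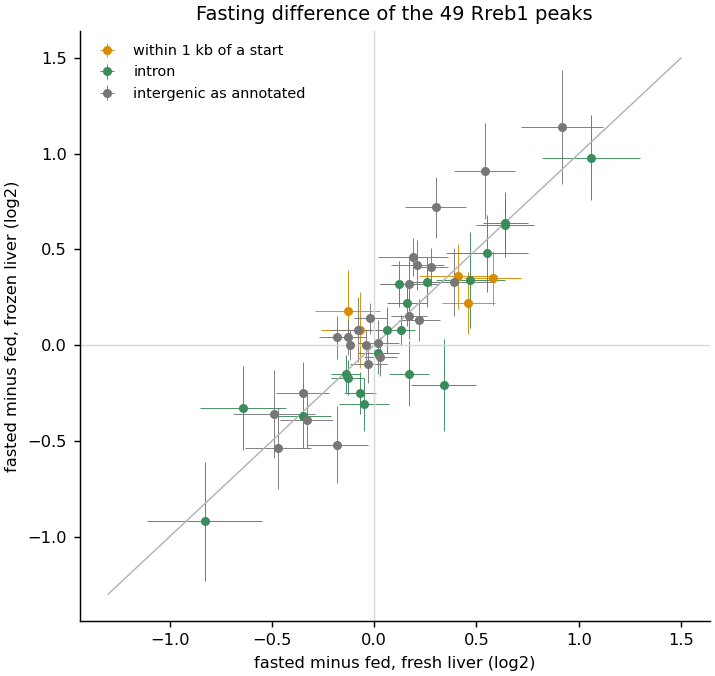
Fasted minus fed (log2 ± SE) of each Rreb1 peak in frozen liver (vertical axis) against fresh liver (horizontal axis), coloured by position, with the line of equality. 37 of the 49 peaks have the same sign in both; the peaks near 1 on both axes are those 64.2 kb upstream and 55.6 kb downstream in intron 1.

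The peak 64.2 kb upstream (37761766 to 37761966), inside the long noncoding RNA gene Gm31600, and the one at 55.6 kb in intron 1 had the highest fasting differences and did not differ from each other beyond their errors. The upstream peak had 225, 190 and 77.9 normalized reads in fasted frozen libraries A, B and C and 157, 164 and 88.1 in fasted fresh ones, against 67.9, 74.9 and 60.5 in fed frozen and 63.9, 69.0 and 74.3 in fed fresh libraries. Letter C stood low among the fasted libraries in both preparations, yet above every fed library. Letters averaged 150 ± 58.7 in fasted and 68.4 ± 3.16 in fed mice (SD, n = 3 each), a log2 difference of 1.03 ± 0.26 (SE), 1.14 ± 0.30 in frozen and 0.92 ± 0.20 in fresh tissue. Without the fasted letter A it was 0.82 and no longer past the threshold. The authors' deposited table gives this peak 1.30 in frozen and 0.99 in fresh tissue. The overlapping peak 64.3 kb upstream (37761667 to 37761867) shares reads with it. That peak had 169, 142 and 82.3 in fasted frozen and 126, 130 and 91.5 in fasted fresh, against 63.1, 84.4 and 55.2 in fed frozen and 71.9, 82.3 and 80.8 in fed fresh libraries. The difference was 0.73 ± 0.19, and the fasted frozen library C lay within the fed range. This difference missed the threshold without the fed letter A or C or the fasted letter A (0.59 to 0.68).

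In intron 1, the peak at 55.6 kb (37881498 to 37881698) was the weakest member by level, and it stood higher in fasted mice. It had 57.3, 64.5 and 64.5 in fasted frozen and 51.6, 59.7 and 64.4 in fasted fresh, against 31.0, 27.1 and 35.0 in fed frozen and 23.1, 23.9 and 37.5 in fed fresh libraries. No fasted library overlapped a fed one. Letters averaged 60.4 ± 5.24 in fasted and 29.6 ± 5.82 in fed mice, a log2 difference of 1.02 ± 0.19.

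The neighbours at 51.0 and 51.4 kb were chosen after their values were seen. The 51.4 kb peak (37877355 to 37877555) had 152, 153 and 162 in fasted frozen and 146, 164 and 153 in fasted fresh, against 98.9, 92.4 and 107 in fed frozen and 93.2, 90.3 and 114 in fed fresh libraries. The fasted and fed libraries were apart, by 0.64 ± 0.10, and the 51.0 kb peak differed by 0.63 ± 0.10. The same stretch also held a peak at 54.6 kb with a difference of -0.36 ± 0.14 and one at 46.4 kb with 0.06.

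Lower accessibility in fasted mice was greatest 87.3 kb downstream of the first start, in intron 6 (37913241 to 37913441). This peak had 55.5, 55.8 and 22.3 in fasted frozen and 52.9, 67.5 and 27.1 in fasted fresh, against 78.6, 87.6 and 70.1 in fed frozen and 81.6, 95.6 and 71.6 in fed fresh libraries. The fasted letter C was low here too, in both preparations. Letters averaged 46.9 ± 19.6 in fasted and 80.9 ± 10.4 in fed mice, a difference of -0.87 ± 0.29, which was -0.47 without the fasted letter C. The peak at 87.1 kb, which overlaps it, had -0.48 ± 0.19, with 58.2, 52.3 and 44.5 in fasted frozen and 70.6, 62.3 and 37.3 in fasted fresh, against 50.0, 78.0 and 69.2 in fed frozen and 82.5, 89.0 and 86.7 in fed fresh libraries. Fasted and fed libraries overlapped there.

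Upstream, the peak at 75.6 kb (37750324 to 37750524) was lower in fasted mice. It had 41.0, 63.6 and 49.0 in fasted frozen and 57.0, 82.1 and 61.0 in fasted fresh, against 73.9, 71.7 and 76.2 in fed frozen and 89.6, 94.3 and 90.7 in fed fresh libraries. The fasted fresh library B lay among the fed values. The log2 difference was -0.51 ± 0.16. It was not past the threshold without any 1 of the fed letters A, B and C or the fasted letters A and C (-0.38 to -0.51). The peak at 87.3 kb likewise missed it without the fed letter A, B or C or the fasted letter A (-0.78 to -1.03). Farther upstream the called members were all higher in fasted mice. The peak at 154.7 kb had 135 ± 21.7 in fasted and 91.9 ± 7.4 in fed mice (0.51 ± 0.13), and those at 159.3, 136.7 and 110.8 kb differed by 0.35 ± 0.08, 0.32 ± 0.11 and 0.32 ± 0.11. The 136.7 kb peak missed the threshold when scaled to peaks near gene starts (0.20). It also missed it without the fed letter A, B or C or the fasted letter B or C (0.24 to 0.36). Intron 6 held 2 peaks that were higher beside the one that was lower, at 77.2 kb by 0.52 ± 0.16 and at 78.6 kb by 0.30 ± 0.08.

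The promoter itself was split. The peak 34 bases upstream of the first start (37825904 to 37826104), over the E-box shown above, had 62.8, 68.0 and 66.8 in fasted frozen and 65.1, 67.0 and 45.2 in fasted fresh, against 57.2, 52.6 and 80.6 in fed frozen and 56.8, 63.7 and 63.1 in fed fresh libraries. The groups overlapped and the difference was 0.00 ± 0.15. At 0.6 kb downstream (37826571 to 37826771), over the second printed window and chosen after its values were seen, fasted frozen libraries had 122, 129 and 147 and fasted fresh ones 124, 112 and 104, against 97.7, 105 and 107 in fed frozen and 79.9, 63.7 and 82.8 in fed fresh libraries. Within each preparation fasted libraries were above fed ones, by 0.47 ± 0.10 on average. The peaks at 0.5 and 0.7 kb differed by 0.38 ± 0.15 and 0.34 ± 0.10, and that at 1.9 kb by 0.03 ± 0.17. Over the 5 start peaks the median was 0.34, beside 0.12 over all peaks near starts. The 3 peaks between 0.5 and 0.7 kb overlap as 1 region and set that median, and the 2 others differed by 0.00 and 0.03. Over the 20 intron and 24 other peaks the median was 0.07 and 0.01.

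**Figure D3:**
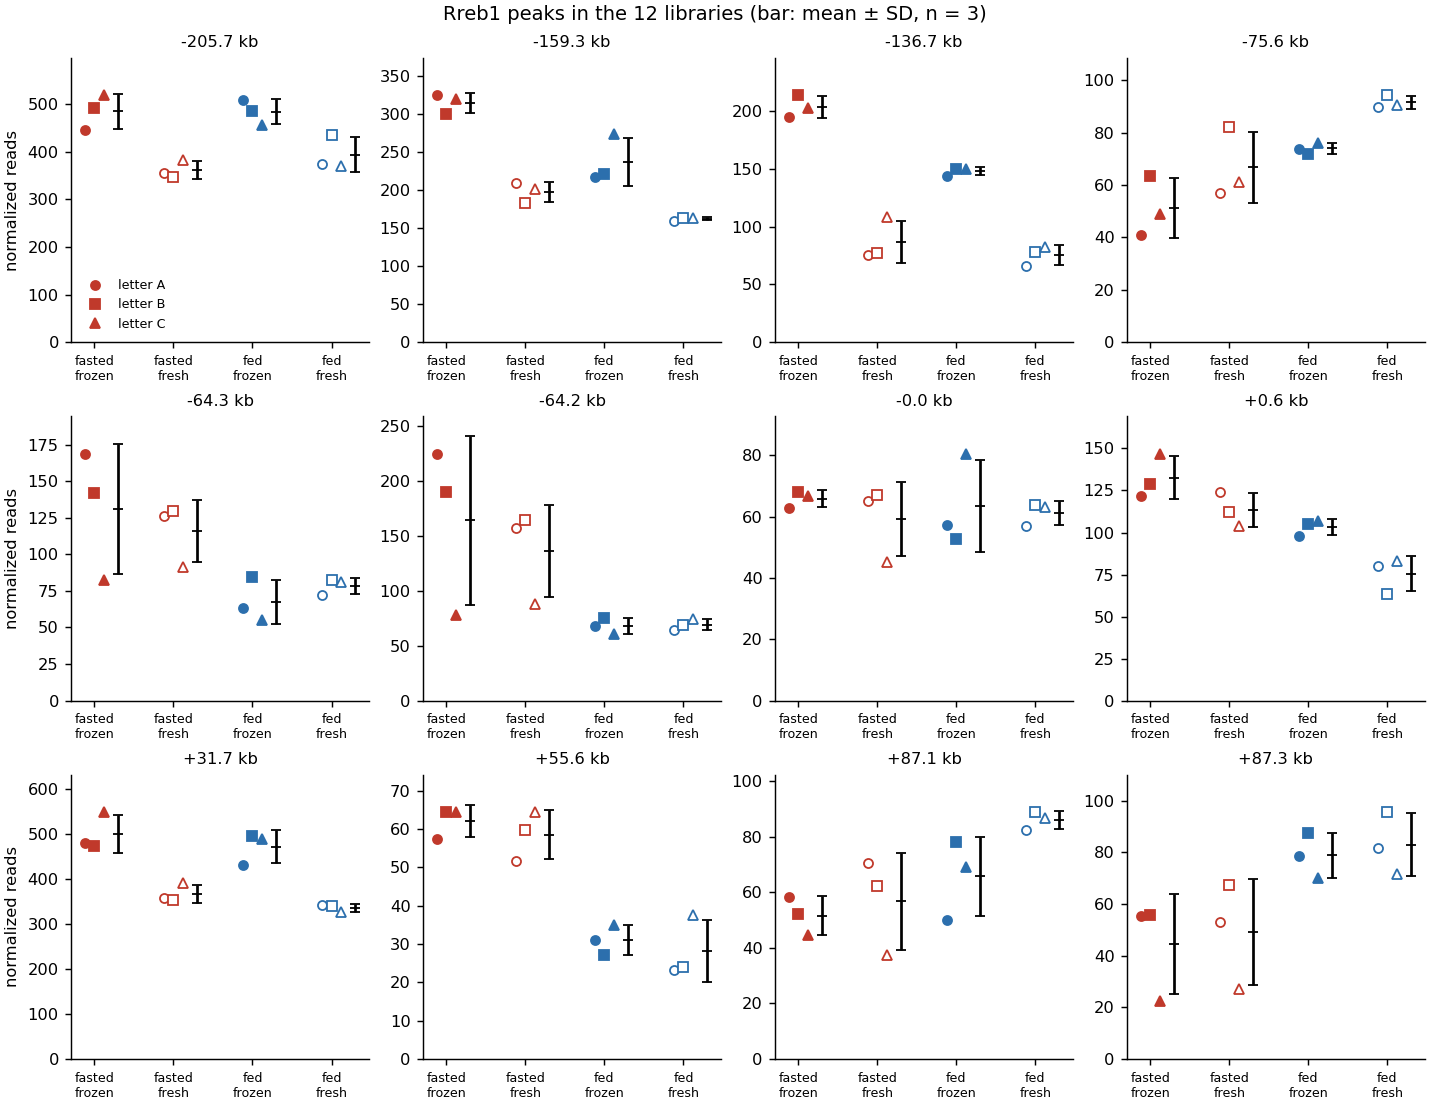
Normalized reads of 12 Rreb1 peaks in each library, with panels in order of the distance from the first start (kb), fasted in red and fed in blue, frozen filled and fresh open, letters by shape, and the mean ± SD (n = 3) beside them. Fasted and fed libraries are apart at -64.2, +55.6 and +87.3 kb, and frozen libraries stand above all fresh ones at -205.7, -159.3, -136.7 and +31.7 kb.

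Freezing is the second question. Of the 49 members, 26 differed between frozen and fresh libraries, 20 higher and 6 lower in frozen tissue (53.1%). This stands beside 61.5% of all peaks (28.7% higher, 32.8% lower, by limma with an adjusted p under 0.05). The running numbers in the sample titles place all fresh libraries before all frozen ones. Freezing therefore cannot be told apart from that order. Scaled to peaks near gene starts the split was 15 higher and 8 lower, beside 62.5% of all peaks (12637 higher, 20187 lower). The main fit held no term for the mouse. With the letters of a feeding state as a term, 28 members were called, beside 70.1% of all peaks. The median member was 0.10 higher in frozen tissue, whereas the median of all peaks was -0.05. Without the lowest 25% of peaks these medians were 0.20 and 0.05. The largest difference lay 136.7 kb upstream (37689262 to 37689462), over a Tigger7 DNA transposon copy. There, frozen libraries had 195, 214 and 203 in fasted and 144, 150 and 150 in fed mice, against fresh ones with 75.3, 77.4 and 108 in fasted and 65.7, 78.3 and 82.8 in fed mice. Every frozen library lay above every fresh one (176 ± 31.2 against 81.3 ± 14.5, SD over fasted and fed libraries, n = 6 each). The log2 difference was 1.10 ± 0.10 (limma, adjusted p = 8.58e-08).

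The peak 159.3 kb upstream (37666593 to 37666793), inside AI463229, had 325, 300 and 320 in fasted frozen and 217, 221 and 274 in fed frozen libraries, against 209, 183 and 201 in fasted fresh and 160, 163 and 164 in fed fresh ones. Frozen and fresh libraries did not overlap, with a difference of 0.60 ± 0.07 (limma, adjusted p = 8.01e-07). The CpG island at 31.7 kb in intron 1 (37857676 to 37857876) had 480, 474 and 550 in fasted frozen and 431, 497 and 490 in fed frozen libraries, against 358, 354 and 391 in fasted fresh and 342, 340 and 327 in fed fresh ones. They were apart as well, at 487 ± 38.4 in frozen and 352 ± 22.2 in fresh tissue (difference 0.47 ± 0.05, limma adjusted p = 9.79e-07). The peaks at 136.4 and 193.0 kb upstream were 0.60 ± 0.07 and 0.53 ± 0.07 higher in frozen tissue (limma, adjusted p = 1.57e-06 and 7.65e-06), and the one at 77.2 kb in intron 6 was 0.63 ± 0.14 higher (limma, adjusted p = 0.000989). The most open peak, 205.7 kb upstream, averaged 484 ± 28.6 in frozen and 378 ± 31.2 in fresh libraries (0.36 ± 0.06, limma adjusted p = 3.32e-05).

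Frozen libraries were all above fresh ones at 11 members (15.2% of all peaks) and all below at 2 (11.7%). Outside genes 14 of 24 members rose and 2 fell from fresh to frozen tissue (66.7%), and in introns 4 of 20 rose and 4 fell (40.0%), beside 59.4% of all peaks beyond 1 kb of a start. Of the 5 start peaks 2 rose, which overlap as 1 region, beside 65.4% of all peaks near starts called. With a line drawn at 100 kb upstream after the values were seen, 14 of 18 peaks beyond it rose and none fell (median 0.38). Counting overlapping peaks once, 11 of 15 rose. Of all peaks, 28.7% rose and 32.8% fell. Of the other 31, 6 rose and 6 fell (median -0.04). The 18 were also more open, with a median level of 141 normalized reads against 109 in the other 31. Level and freezing difference had r = 0.38 over all peaks and 0.33 over the 49. The parts of position and level were not tested. The members that fell lay 75.6 and 10.9 kb upstream and at 29.9, 46.4, 54.6 and 70.0 kb downstream of the first start. The strongest fall was at 46.4 kb, with a log2 difference of -0.46 ± 0.15 (limma, adjusted p = 0.0131). At 75.6 kb upstream it was -0.34 ± 0.12 (limma, adjusted p = 0.0227), and it was not called under quantile normalization (-0.16) or without the fed letter B (-0.33). At the promoter the 0.6 kb peak was higher by 0.34 ± 0.09 (limma, adjusted p = 0.00471).

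The third question is whether freezing altered the fasting difference. By limma's interaction term no Rreb1 peak passed (0 of 49, background 0.0% of 52530 peaks). At an unadjusted p under 0.05 there were again 0 of 49, against 2702 of all peaks (5.14%). With the replicate block, in which the letters of a feeding state are a term, 395 of all peaks passed and again none of the 49. At an unadjusted p under 0.05 that limma fit had 2 of the 49 and 6879 of all peaks. The interaction estimates of the members ran from -0.55 to 0.42.

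Summed over the 49 peaks, the locus held 8296 to 8416 normalized reads in fasted frozen and 7133 to 7156 in fasted fresh libraries, against 7648 to 7900 in fed frozen and 6815 to 6887 in fed fresh ones (n = 3 each). Within each preparation the fasted sums lay above all fed sums. As a share of all normalized reads in peaks, they were 0.103% ± 0.00195 in fasted frozen and 0.0932% ± 0.00137 in fasted fresh, against 0.0983% ± 0.00203 in fed frozen and 0.0889% ± 0.000803 in fed fresh libraries (SD). Scaled to peaks near gene starts, the summed reads, though not the shares, turned round between the feeding groups. They were 7787 ± 63.2 and 7037 ± 95.8 in fasted frozen and fresh, against 7928 ± 150 and 7322 ± 139 in fed frozen and fresh libraries. The endothelial list, the longest of another cell type, summed to 1460 to 1580 in fasted frozen and 1480 to 1500 in fasted fresh libraries, against 1510 to 1630 in fed frozen and 1610 to 1700 in fed fresh ones; its part in the fasting differences was not tested.

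**Figure D4:**
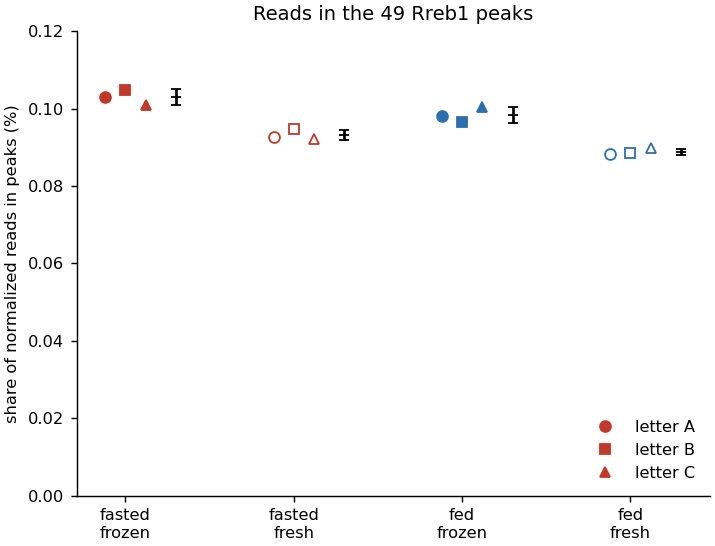
Reads in the 49 Rreb1 peaks as a percentage of all normalized reads in peaks, by library (shapes are letters; bars are mean ± SD, n = 3). The fasted groups average 0.103% in frozen and 0.0932% in fresh liver, against 0.0983% and 0.0889% in fed mice.

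Peaks of other genes within 500 kb on either side numbered 40, at 6 genes. Of these, 4 were higher and 4 lower in fasted mice (20.0%, beside 34.6% of all peaks; median -0.09, -1.18 to 0.95), and 15 were higher and 9 lower in frozen tissue (60.0%, beside 61.5%). Ly86, which encodes an immune cell protein that pairs with a Toll-like receptor relative, had 19 peaks with 2 higher and 4 lower in fasted mice. The 4 peaks in intron 10 of Rreb1 that the file assigns to Ssr1, a subunit of the translocon-associated protein complex, differed by -0.26 to 0.31 and none was called. Dsp (desmoplakin), Bmp6 (a ligand that induces hepcidin in liver) and the 1 peak of Snrnp48 had none called, and Riok1 and Ssr1 had 1 higher each. Other loci with many peaks are given for comparison in fasted mice, with no test between loci, beside 16.5% of all peaks higher and 18.1% lower. Klf9, a glucocorticoid-induced zinc finger factor, had 21 of 30 peaks higher and none lower, Nr3c1, the glucocorticoid receptor, had 13 of 33 lower and none higher, and Rasgef1b, a guanine nucleotide exchange factor, had 14 of 20 higher and 3 lower.

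Among genes with 10 or more peaks (933), those whose mean log2 accessibility over their peaks followed that of Rreb1 most closely over the 12 libraries were Nt5c2 (r = 0.971), Lrig2 (0.954), Hp (0.953), Bcl9l (0.95) and Kpna2 (0.949), by Pearson r as a description. The Rreb1 mean lay at 7.09 to 7.19 in fasted frozen and 6.95 to 7.02 in fasted fresh libraries, against 7.01 to 7.06 in fed frozen and 6.88 to 6.92 in fed fresh ones (log2).

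RREB1 works between the RAS and TGF-beta pathways, whose genes are described by peak, beside 34.6% of all peaks called for fasting. Of 37 RAS and MAPK genes 34 had peaks, 208 in all, and 24 were higher and 40 lower in fasted mice (30.8%, median 0.01). Among the feedback inhibitors of the list, Spry2 had 3 of 3 peaks lower, Spry4 5 of 9, Dusp6, an ERK phosphatase, 5 of 22 and Spred2 3 of 15, with none higher. Dusp4 (5 peaks) and Spred1 (8 peaks) had 1 higher and 1 lower each, and the 1 peak of Spry1 was not called. Among the ETS factors, Elk4 had 6 higher and 1 lower of 10 peaks, Ets2 5 and 1 of 14, and Etv5 1 higher of 6. Etv6 had 3 lower of 14, Ets1 2 lower of 4, and the 1 peak of Elk1 was not called. Of 24 TGF-beta and SMAD genes 20 had 118 peaks, and 25 were higher and 24 lower (41.5%, median 0.03). Of the TGF-beta receptors, Tgfbr1 had 3 of 4 peaks higher, Tgfbr3 4 of 7 lower and Tgfbr2 its 1 peak lower. The SMAD corepressor Skil had 9 of 11 peaks higher and 1 lower, and its relative Ski 1 higher and 2 lower of 10. The inhibitory Smad6 had 4 of 13 lower, and Smad7 1 higher and 1 lower of 11. Corepressor genes (7 of 8 with 25 peaks) had 3 higher and 4 lower (28.0%), the 3 being peaks of Ctbp1, which has 5. Scaled to peaks near gene starts, 4065 of all peaks were higher and 12845 lower. Of the genes named, Skil then had 5 higher, Elk4 and Ets2 3 each, Tgfbr1 and Ctbp1 2 each, and Etv5 1. Smad6 and Dusp6 had 7 lower each, Spry4 and Tgfbr3 6 each, and Smad7, Spred2 and Etv6 4 each. Spry2 had 3 lower, and Ets1, Ski and Etv5 had 2 each. Skil, Elk4, Ets2, Dusp4, Spred1 and Tgfbr2 had 1 lower each. In frozen tissue the RAS and MAPK peaks were 68 higher and 62 lower (62.5%), and the TGF-beta and SMAD peaks 32 and 36 (57.6%). The corepressor peaks were 9 and 6 (60.0%), beside 61.5% of all peaks called for freezing.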

How the data were processed

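Each library came from 25000 bead-bound nuclei, with a transposition of 30 min at 37 °C and 12 cycles of PCR, per the labels' protocols. The tools in the submitters' processing notes are BWA 0.7.5a-r405, DESeq2, HOMER and SAMtools, with mm10 as the build. Transposase offset, duplicates, multiple matches and the peak caller: not given in the sources used here. The signal column of each library holds the authors' normalized reads per peak as deposited, all of them whole multiples of 1 step per library (within 0.001 steps). In most columns the lowest value above 0 is more than 1 step, so it was not settled that a step is 1 read, and no count model was used. The deposited table also holds the authors' log2 fold change and adjusted p-value for fasted over fed mice in each preparation, with no method in the file. It has a peak score by the authors, which was not used. Depths take the smallest step of a column as 1 read.

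Values were taken as log2(value + 1), with no filter, and the fits used limma (3.58.1, with R 4.3.3) with a trended prior and two-sided tests, adjusted by Benjamini-Hochberg over all 52530 peaks at a threshold of 0.05. The scripts were checked on simulated data. Fasting was fitted on the mean of both libraries of each letter, 3 against 3. Freezing was fitted on 12 libraries with feeding, and the interaction with both. For these, only the replicate block held a term for the mouse. Folds are on the log2(value + 1) scale, which understates low peaks. The columns carry letters that match no mouse number of the labels. Same-letter libraries deviated together (r from 0.329 to 0.64 in 6 pairs; highest r with another letter 0.0213), all above the 0.1 set for pairing, so the pairing comes from the data. Scaling to peaks within 1 kb of a start, quantile normalization, pseudocounts of 0.5 and 5, a filter of the lowest 25% and leaving out each letter were the alternatives.

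Members, gene lists and tests were chosen with earlier results of these data known. Values in every library are given for the most open member, the one nearest a start, the 3 with the largest fasting difference either way and the 3 with the lowest adjusted p for freezing; others so shown are said to have been chosen after their values were seen. Motifs and the comparison loci were chosen in the same way. Matching to RefSeq was by symbol, and all 4 Rreb1 windows were found.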

Additional observations from a re-analysis of the deposited data

How the results depend on the processing

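Without the lowest 25% of peaks, fasting called 11780 peaks on the average (18163 in full), 9682 in frozen (14578) and 8671 in fresh tissue (14477), which follows in part from fewer peaks tested. Leaving out 1 letter gave 11500 to 17672 on the average, 8711 to 14001 in frozen and 9747 to 14642 in fresh tissue. The lowest of each was without the fed letter B. The Rreb1 peaks called for fasting were 6 to 15 on the average, 6 to 12 in frozen and 5 to 13 in fresh tissue when 1 letter was left out, against 15, 10 and 12. In frozen tissue they were 6 without the fed letter A, B or C, and in fresh tissue 6 without the fed letter A or B, 7 without the fed letter C and 5 without the fasted letter A. With the 12 libraries taken as separate samples they were 30 on the average, beside 48.1% of all peaks. Scaled to peaks near gene starts, the Rreb1 median for fasting was -0.066 and the one for freezing 0.03, against 0.158 under quantile normalization and 0.079 to 0.128 without 1 letter. The summed share, 0.00451 percentage points higher in fasted mice, was 0.0154 as a share of reads beyond 1 kb of a start and -0.00272 when scaled to peaks near starts, an alternative chosen after seeing the data. The neighbours' median was 0.03 within 200 kb. With the replicate block, the interaction had 395 peaks, and freezing called 28 Rreb1 peaks against 26. It moved no other count past the adjusted threshold by over 1.5 times. The causes were not tested. Depth limits the weakest Rreb1 peaks, the lowest of which held 10 reads in 1 library.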
